A study of Homo sapiens
Mus musculus and Homo sapiens with 12 samples.

Results

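Genes of the G2 phase and mitosis were followed in the human RNA of fibroblasts fused with mouse embryonic stem cells. The set holds 37 human genes picked by name for their roles in entering and passing through mitosis, with earlier results of these data known. They are among 19475 human genes with a RefSeq coding transcript. Heterokaryons were made from MRC5, a human fetal lung fibroblast line, and D3, a mouse embryonic stem cell line. Membranes are joined in a heterokaryon while the human and mouse nuclei stay separate, and the product is transient and is not grown on as a line. At least 30000 heterokaryons were sorted by flow cytometry per sample, and polyA RNA was sequenced on day 1, day 2 and day 3, with 2 libraries a day. Co-culture, with 2 libraries, held unfused D3 and MRC5 cells whose RNA was harvested together. Unfused human fibroblasts gave 3 samples, of which 2 list human transcripts and are used here. In the table of replicate 1, 12153 of 17527 rows lie outside the human annotation, so results that rest on it are given with and without it. Homokaryons, human fibroblasts fused with each other, gave 1 library. The labels name no drug or genetic change in any group, and give no day for co-culture, homokaryons or unfused fibroblasts. Nothing in them ties replicates to separate cultures, and p-values here reflect just the variation among the libraries at hand, which may be technical.

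Entry into mitosis depends on the kinase CDK1 bound to cyclin A or cyclin B. Many genes needed in G2 and mitosis are transcribed together late in the cycle, when the MuvB complex with B-MYB and then FOXM1 activate them. In resting cells the DREAM complex, in which MuvB is joined to an RB family protein and an E2F, holds them off. Their RNA level is widely used as a sign of how much a cell population divides, and embryonic stem cells divide quickly whereas cultured fibroblasts slow down when crowded or starved of growth factors.

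Levels are in RPKM, read density per transcript length and library, a unit inferred from the values, and a gene's level is the sum over its RefSeq coding transcripts. Each table breaks off in accession order, so a transcript absent before that point was taken as 0 and one after it as not covered. Of the 37 genes, 23 were covered whole in at least 1 library, 11 only in part, and CENPF, ESPL1 and TPX2 lie past the end of every table. Between 19 and 23 members were covered whole in 8 of the 11 libraries, 15 in unfused fibroblast replicate 2 and in heterokaryon day 2 replicate 1, and only TOP2A in unfused fibroblast replicate 1. The labelled cell type was checked on its markers: VIM, an intermediate filament gene of fibroblasts, stood between 1429 and 3319 RPKM in the 10 libraries that cover it. Among the 11 fibroblast markers covered in all of those libraries, LUM stood between 0 and 2.58 RPKM and every other at 26.1 RPKM or more. Of 12 pluripotency markers, the 4 covered in all of those libraries summed to 0 in fibroblasts, homokaryon, co-culture and day 1, and to between 0.282 and 1.89 RPKM on days 2 and 3. Read totals were not given, so no counting interval can be set on a level. In these bulk samples a lower share of dividing cells and less RNA per cell cannot be told apart.

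**Figure D1:**
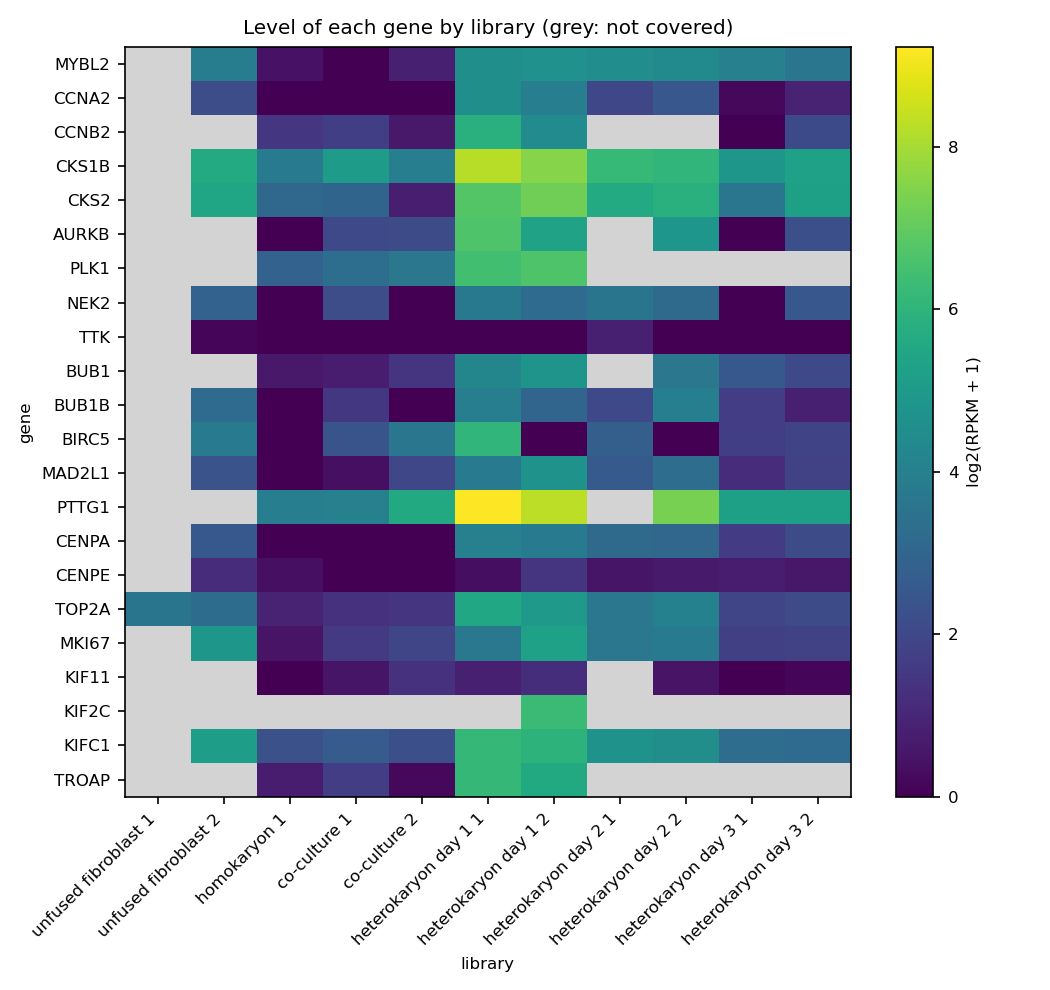
Level of 22 genes of the set, as log2(RPKM + 1) by colour, in each of 11 libraries; rows are genes ordered by role, columns are libraries, and grey marks a gene that the library's table does not cover whole. Most rows are brightest in the 2 day 1 columns and dark in the homokaryon and co-culture columns.

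The comparison of day 1 heterokaryons with co-culture asks how fused fibroblast nuclei differ from unfused fibroblasts kept beside the same stem cells. Sorting and a day are given for heterokaryons and not for co-culture, so fusion, sorting and time in culture cannot be told apart. The comparison covered 22 members whole and tested 19, those at 1 RPKM or more in at least 2 of the 4 libraries. Of these, 15 rose and none fell (limma, Benjamini-Hochberg adjusted p under 0.05 over 3102 genes), where 7.58% of all genes tested were called higher. The median log2 difference of the 19 was 3.60, against 0.03 over all genes. In 17 of the 19 both day 1 libraries lay above both co-culture libraries, as they did for 31.4% of all genes. Since the set was chosen with earlier results of these data known, these counts are a description. The risers came from every role in the set: 1 of 1 tested transcription factor, 4 of 4 cyclins and CDK partners, 3 of 5 kinases, 2 of 3 checkpoint and anaphase genes, 3 of 3 centromere and chromosome genes and 2 of 3 spindle genes. All log2 differences are on the log2(RPKM + 1) scale, which understates the change of low genes. Day 1, day 2 and day 3 are compared with the same 2 co-culture libraries, so the 3 comparisons are not independent.

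MYBL2 encodes B-MYB, the activator that joins the MuvB complex to switch on late cell cycle genes. Its level was 23.2 and 24.6 RPKM on day 1, 22.1 and 20.4 on day 2, and 15.1 and 11.3 on day 3. Co-culture gave 0 and 0.765 RPKM, the homokaryon library 0.365 and unfused fibroblast replicate 2 13.9. All 6 heterokaryon libraries lay far above both co-cultures, and MYBL2 rose on day 1 (log2 difference 4.23, SE 0.47, adjusted p = 0.00294). It also rose on day 2 (4.06, SE 0.47, adjusted p = 0.00304), and the difference on day 3 was 3.41 (SE 0.47, adjusted p = 0.00977). MYBL2 was the only member called on day 3. FOXM1, the forkhead activator of the same genes, was covered in part, and its covered transcripts summed to 21.6 and 20.9 RPKM on day 1, 12.9 and 11.8 on day 2, and 3.68 and 3.85 on day 3. Co-culture stood at 3.29 and 4.91 RPKM, so that FOXM1 overlapped co-culture on day 3 and MYBL2 did not. FOXM1 read 0.872 RPKM in unfused fibroblast replicate 2, below both co-cultures, and 0 in the homokaryon library.

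Genes covered in part were tested in a separate fit on the transcripts that every library of a comparison covers, which called 4.55% of 5293 genes higher on day 1. That fit did not call the whole-covered AURKB (adjusted p = 0.0501) and CCNB2 (0.0563). In that fit FOXM1 rose on day 1 (2.14, SE 0.45, adjusted p = 0.0372). CDK1, the kinase that drives entry into mitosis, rose as well (4.30, SE 0.71, adjusted p = 0.0212), from 0 in both co-cultures to 13.9 and 25.3 RPKM. CDK1 then read 2.82 and 9.25 RPKM on day 2 and 0.926 and 3.19 on day 3. CDC25C, a phosphatase that activates CDK1, also rose (3.87, SE 0.61, adjusted p = 0.02), with 13.8 and 13.5 RPKM on day 1, 7.15 and 1.83 on day 2, and 0 in both co-cultures and both day 3 libraries. RACGAP1, a cytokinesis regulator, rose from 3.34 and 1.86 to 25.9 and 30.0 RPKM (3.04, SE 0.53, adjusted p = 0.0244). CDC25B, the phosphatase thought to act first on CDK1, read 203 and 40.8 RPKM against 9.99 and 7.06 in co-culture and was not called (3.29, SE 0.98, adjusted p = 0.0952). It read 39.0 RPKM in day 2 replicate 2, and its listed transcript is not covered in day 2 replicate 1. On day 3 CDC25B read 17.4 and 89.4 RPKM, still above both co-cultures, and was not called (2.12, SE 0.98, adjusted p = 0.355). No day 2 difference of a gene covered in part was called, in a fit that called 3.35% of 4504 genes higher.

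CCNA2 encodes cyclin A2, which partners CDK1 and CDK2 in S phase and G2. It was at 0 RPKM in both co-cultures and in the homokaryon library, at 23.2 and 14.4 on day 1, 2.90 and 4.75 on day 2, and 0.14 and 0.869 on day 3. Unfused fibroblast replicate 2 stood at 3.53 RPKM, between day 1 and day 3. CCNA2 rose on day 1 (4.27, SE 0.55, adjusted p = 0.00419) and on day 2, by 2.24 (SE 0.54, adjusted p = 0.0343), both relative to a group at 0, where the size depends on the added 1. CCNB2, cyclin B2, was at 2.25 and 0.541 RPKM in co-culture, 57.4 and 21.0 on day 1, 0 and 3.17 on day 3, and 1.72 in the homokaryon library. It rose on day 1 (4, SE 0.88, adjusted p = 0.0302), and its day 3 libraries surrounded the co-cultures. CCNB1, cyclin B1, was listed in no table and is covered only in part.

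CKS1B and CKS2 encode small paralogous proteins that bind CDKs and guide them to their substrates. Their coding sequences are shown because the genes are close relatives whose levels were read separately. Both are from GENCODE 29 on GRCh38, plus strand, for the transcripts at chr1:154974699-154979249 and chr9:89311198-89316703, printed 5′ to 3′ from start to stop codon with capitals at the bases that differ between them.
CKS1B: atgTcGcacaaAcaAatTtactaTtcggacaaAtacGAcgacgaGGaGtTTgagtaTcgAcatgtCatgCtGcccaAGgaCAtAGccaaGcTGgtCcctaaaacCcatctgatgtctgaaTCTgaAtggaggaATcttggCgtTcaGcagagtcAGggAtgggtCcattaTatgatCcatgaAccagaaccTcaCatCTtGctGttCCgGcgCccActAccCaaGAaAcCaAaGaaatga
CKS2: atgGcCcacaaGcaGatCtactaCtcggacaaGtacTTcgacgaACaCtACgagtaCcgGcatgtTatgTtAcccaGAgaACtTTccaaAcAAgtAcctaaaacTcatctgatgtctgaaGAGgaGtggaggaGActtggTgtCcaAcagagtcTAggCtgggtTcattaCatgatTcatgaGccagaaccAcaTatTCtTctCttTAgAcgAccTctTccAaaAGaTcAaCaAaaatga
The 2 sequences of 240 bases differ at 65 positions (72.9% identical), and their longest identical run is 15 bases. CKS1B was at 32.5 and 14.3 RPKM in co-culture, 301 and 189 on day 1, 72.5 and 65.8 on day 2, and 28.8 and 37.9 on day 3. The homokaryon library had 12.9 RPKM and unfused fibroblast replicate 2 had 48.6. CKS1B rose on day 1 (3.40, SE 0.42, adjusted p = 0.00386) and on day 2, by 1.63 (SE 0.42, adjusted p = 0.0404), and on day 3 it overlapped co-culture. CKS2 was at 6.85 and 0.732 RPKM in co-culture, 107 and 149 on day 1, 48.4 and 57.8 on day 2, and 11.4 and 36.9 on day 3. The homokaryon library had 7.76 RPKM of CKS2 and unfused fibroblast replicate 2 had 41.9. CKS2 rose on day 1 (5.11, SE 0.74, adjusted p = 0.00712) and on day 2, by 3.87 (SE 0.75, adjusted p = 0.0195). On day 3 both libraries still lay above co-culture, but the difference was not called (2.56, SE 0.74, adjusted p = 0.0972).

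Among mitotic kinases, PLK1, which acts from centrosome maturation to cytokinesis, was covered on day 1, in co-culture and in homokaryons only. It rose from 9.07 and 11.6 RPKM in co-culture to 85.1 and 103 on day 1 (3.07, SE 0.34, adjusted p = 0.00615), and the homokaryon library had 6.42. AURKB, the kinase of the chromosomal passenger complex, rose from 3.14 and 3.35 RPKM to 102 and 39.2 (3.92, SE 0.82, adjusted p = 0.0263). It then read 27.6 RPKM in day 2 replicate 2, 0 and 3.74 on day 3, and 0 in the homokaryon library. BUB1, a spindle checkpoint kinase at kinetochores, rose from 0.611 and 1.64 RPKM to 17.7 and 26.4 (3.46, SE 0.56, adjusted p = 0.0125), with 11.6 in day 2 replicate 2, 4.78 and 3.10 on day 3 and 0.56 in the homokaryon library. All 3 kinases had day 1 levels well clear of co-culture.

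The other kinases were less uniform. BUB1B, which encodes the checkpoint protein BUBR1, read 14.4 and 7.03 RPKM on day 1 and 3.11 and 14.7 on day 2, against 1.83 and 0 in co-culture, and was not called on day 1 (2.73, SE 0.83, adjusted p = 0.0673). NEK2, a centrosome kinase, read 12.2 and 8.34 RPKM on day 1 against 3.48 and 0 in co-culture, and was not called either (2.39, SE 0.96, adjusted p = 0.135). Its day 1 level lay on a transcript at 0 in both co-cultures. The 3.48 RPKM of NEK2 in co-culture lay on another, which was at 0 in both day 1 libraries. In BUB1B and NEK2 the day 1 libraries lay above the co-cultures. TTK, the checkpoint kinase MPS1, was at 0.0978 RPKM in unfused fibroblast replicate 2 and 0.738 in day 2 replicate 1, and at 0 in the other libraries that cover it. AURKA, the spindle pole kinase, was covered in part: its covered transcripts were at 0 in both day 1 libraries, 3.62 and 2.47 RPKM on day 2, and 4.26 in unfused fibroblast replicate 2. AURKA thus had no signal on the day when AURKB was highest, in the transcripts covered.

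Of the genes that hold chromatids together and time their separation, PTTG1 reached the highest level in the set. PTTG1 encodes securin, the inhibitor of separase that is destroyed at anaphase. It was at 15.3 and 47.8 RPKM in co-culture, 600.3 and 319 on day 1, 162 in day 2 replicate 2, 37.4 and 37 on day 3, and 14.6 in the homokaryon library. PTTG1 rose on day 1 (3.96, SE 0.54, adjusted p = 0.00722), and by day 3 both libraries lay between the co-cultures. Its coding sequence is 94.3% identical to that of PTTG2 over 575 aligned bases, with a shared run of 46 bases. Whether the reads of PTTG1 and PTTG2 could be told apart was not tested. PTTG2 was at 0 in day 1 replicate 2, the only library that covers it. MAD2L1, the checkpoint protein MAD2, rose from 0.304 and 2.93 RPKM in co-culture to 13.1 and 25.6 on day 1 (3.09, SE 0.70, adjusted p = 0.0271), and then read 5.13 and 8.93 on day 2 and 1.25 and 2.57 on day 3. BIRC5, the passenger complex subunit survivin, differed more between replicates than between groups, with 66.6 and 0 RPKM on day 1, 5.96 and 0 on day 2, and 4.29 and 11.5 in co-culture (0.02, SE 1.76, adjusted p = 0.997 on day 1). One of its RefSeq accessions lies within the covered range and is listed in no table. CDC20, the activator of the anaphase promoting complex, was likewise listed in no table although its accession lies within 10 of them, and whether it was absent from the RNA or from the annotation used was not tested.

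Centromere and chromosome genes rose on day 1 in all 3 tested members. TOP2A, the topoisomerase that untangles sister chromatids, was at 1.49 and 1.71 RPKM in co-culture, 44.1 and 30.8 on day 1, 11.8 and 15.5 on day 2, and 2.80 and 3.27 on day 3. It rose on day 1 (3.87, SE 0.44, adjusted p = 0.00242) and on day 2, by 2.48 (SE 0.44, adjusted p = 0.0102). CENPA, the histone H3 variant of centromeres, was at 0 RPKM in both co-cultures and the homokaryon library, 15.3 and 13.0 on day 1, 8.13 and 7.23 on day 2, and 2.01 and 3.28 on day 3. The 6 heterokaryon libraries held CENPA RNA and the co-cultures listed none, and it rose on day 1 (3.92, SE 0.50, adjusted p = 0.00386) and on day 2, by 3.12 (SE 0.50, adjusted p = 0.00912). MKI67, the proliferation marker Ki-67, was at 1.99 and 2.77 RPKM in co-culture, 11.9 and 38.2 on day 1, 11.7 and 12.7 on day 2, and 2.36 and 2.45 on day 3. MKI67 rose on day 1 (2.75, SE 0.59, adjusted p = 0.0237), and on day 3 both libraries lay between the co-cultures. CENPE, a kinetochore motor, never passed 1.69 RPKM and did not reach the level needed for a test against co-culture or between days. The covered part of KIF22, a chromosome arm motor, read 0 and 74.7 RPKM in the 2 day 1 libraries, against 1.82 and 5.25 in co-culture. It read 0 and 23.3 RPKM on day 2 and 18.3 and 17.5 on day 3. Both day 3 libraries lay above co-culture without a call (2.17, SE 2.13, adjusted p = 0.709). From day 1 to day 3 its log2 difference was positive and not called (1.12, SE 2.14, adjusted p = 0.881).

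Spindle genes split by member. KIFC1, a minus end directed kinesin that bundles spindle microtubules, was at 5.31 and 3.76 RPKM in co-culture, 69.6 and 61.9 on day 1, 26.0 and 22.6 on day 2, and 8.87 and 8.27 on day 3. Its libraries were close within every group, and it rose on day 1 (3.60, SE 0.35, adjusted p = 0.00242) and on day 2, by 2.20 (SE 0.35, adjusted p = 0.00912). TROAP, a microtubule binding protein needed for the spindle, rose from 2.30 and 0.158 RPKM to 70.2 and 48.3 on day 1 (4.92, SE 0.65, adjusted p = 0.00946), and the homokaryon library had 0.628. KIF11, the plus end kinesin Eg5 that pushes spindle poles apart, showed no such rise: it read 0.753 and 1.31 RPKM on day 1 against 0.421 and 1.47 in co-culture (0.10, SE 0.51, adjusted p = 0.921). KIF2C, a microtubule depolymerizing kinesin, was covered whole only in day 1 replicate 2, at 76.5 RPKM. Of the spindle genes covered in part, KIF23 had 1 transcript listed, which read 0.128 and 1.10 RPKM in co-culture and 0.211 in the homokaryon library. That transcript was at 0 in both day 1 libraries and in day 3 replicate 1. It is not covered in the other heterokaryon libraries, so KIF23 was not measured there. HMMR, also covered in part, read 0 and 0.503 RPKM on day 1, 2.30 and 1.37 on day 2 and 3.99 in unfused fibroblast replicate 2.

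STMN1 encodes the microtubule destabilizer stathmin. Its covered transcripts summed to 33.9 and 34.5 RPKM in co-culture and 24.4 and 31.02 on day 1, and it was not called (-0.30, SE 0.33, adjusted p = 0.644). Unfused fibroblasts share 1 covered transcript with the other libraries, which read 131 and 97.2 RPKM there, 11.8 in the homokaryon library, 9.06 and 10.0 in co-culture, 6.23 and 11.2 on day 1, 52.9 and 30.1 on day 2, and 7.41 and 1.19 on day 3. On that transcript STMN1 fell on day 1 against unfused fibroblasts (-3.60, SE 0.66, adjusted p = 0.0151). It was lower on day 3 as well, where the difference was -4.73 (SE 0.66, adjusted p = 0.00877). Without unfused fibroblast replicate 1, an alternative chosen after the data were seen, neither was called (-3.39, adjusted p = 0.0995 on day 1, and -4.52, adjusted p = 0.0713 on day 3). The other transcript held most of the STMN1 level in co-culture and on day 1, with 18.2 to 24.9 RPKM, and is not covered in unfused fibroblasts, so how reads were divided between the pair there was not tested. The fits with genes covered in part called 6.6% of 2241 genes lower on day 1 and 2.14% of 2240 genes lower on day 3.

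**Figure D2:**
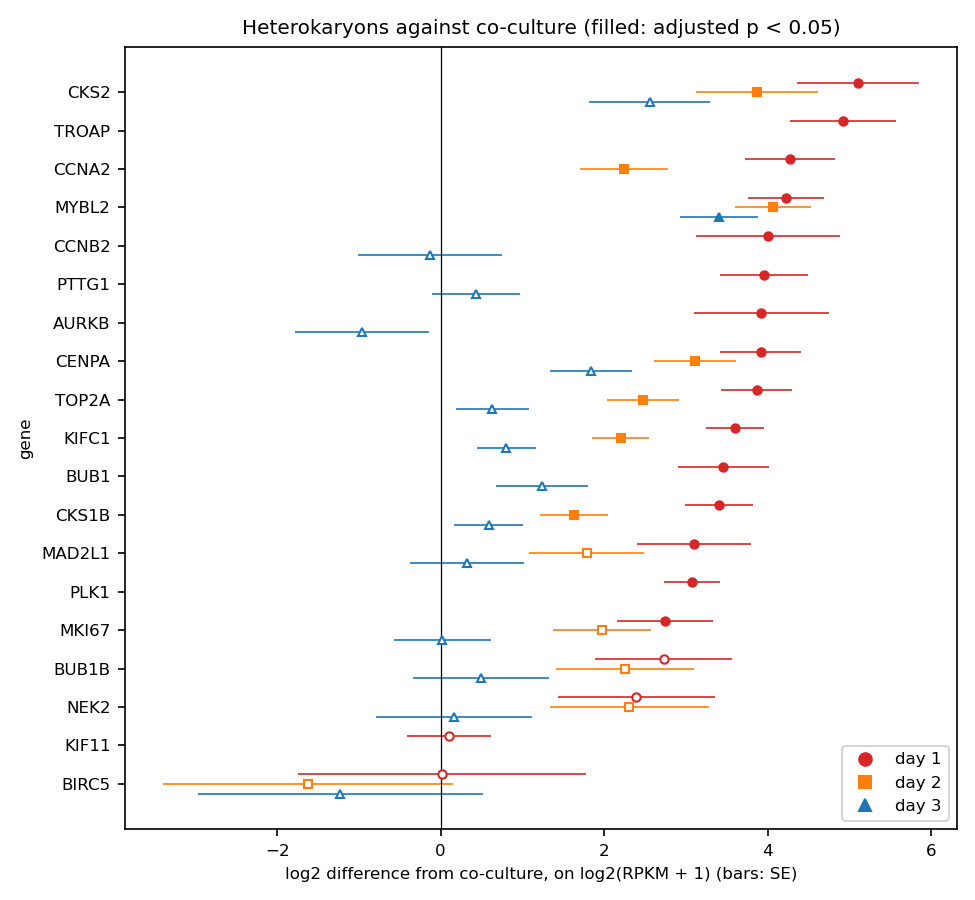
Log2 difference from co-culture on the log2(RPKM + 1) scale (horizontal axis) for each tested gene (vertical axis) on day 1 (circles), day 2 (squares) and day 3 (triangles), with bars for the SE of the fit and filled symbols for adjusted p under 0.05. The day 1 points of 15 genes are filled and lie between 2.75 and 5.11, while MYBL2 alone is filled on day 3.

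On day 2, 15 members were covered and 12 tested against co-culture, and 7 rose, where 8.74% of 2128 genes were called higher. The 7 were MYBL2, CKS2, CENPA, TOP2A, CCNA2, KIFC1 and CKS1B. In 11 of the 12 both day 2 libraries lay above both co-cultures, as for 40.9% of all genes, and the median log2 difference was 2.25 against 0.26 over all genes. Of those not called, MKI67 differed by 1.98 (SE 0.60, adjusted p = 0.0663), and BIRC5 alone was lower, by a log2 difference of -1.62 (SE 1.77, adjusted p = 0.614). On day 3, 20 members were covered and 15 tested, and 1, MYBL2, rose, where 2.86% of 2586 genes were called higher. Both day 3 libraries lay above co-culture in 6 of the 15 (27% of all genes), with a median log2 difference of 0.50 against 0.03. Besides MYBL2 these were CKS2, CENPA, BUB1, KIFC1 and TOP2A, with log2 differences from 0.63 to 2.56.

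The days were also compared with each other, without co-culture. From day 1 to day 3, 20 members were covered and 16 tested, and 6 fell, where 0.658% of 2585 genes were called lower. All 16 differences were negative, with a median of -2.75 against -0.03 over all genes, and in 15 of the 16 both day 3 libraries lay below both day 1 libraries (22% of all genes). The 6 were AURKB (-4.89, SE 0.82, adjusted p = 0.0474), CCNA2 (-3.73, SE 0.56, adjusted p = 0.0441), PTTG1 (-3.52, SE 0.54, adjusted p = 0.0452), TOP2A (-3.23, SE 0.44, adjusted p = 0.032), CKS1B (-2.81, SE 0.42, adjusted p = 0.0441) and KIFC1 (-2.80, SE 0.36, adjusted p = 0.032). None of them was called when only the day 1 and day 3 libraries entered the fit, nor with the replicate number as a term. MYBL2 had the smallest day 3 difference from day 1 (-0.82, SE 0.47, adjusted p = 0.376). As a share of the day 1 mean, day 3 held 55.2% for MYBL2, 18.9% for CKS2, 18.7% for CENPA, 13.6% for CKS1B, 13.0% for KIFC1, 8.10% for TOP2A and 2.69% for CCNA2.

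No member covered whole was called over a single day. From day 1 to day 2, 12 members were tested and all 12 differences were negative, with 8 below without overlap (19.8% of all genes), and limma called 0 members (4 at an unadjusted p under 0.05), where 0.094% of 2128 genes were called lower. The separate fit called AURKB lower (-5.08, SE 0.73, adjusted p = 0.0482) on 1 of the 2 transcripts listed for it, which was at 0 in both day 2 libraries. The other transcript, not covered in day 2 replicate 1, held all 27.6 RPKM of AURKB in day 2 replicate 2. From day 2 to day 3, 11 of 12 differences were negative and those 11 did not overlap (24.6% of all genes). Limma called 0 members there (6 at an unadjusted p under 0.05) and 0 of 2186 genes (0% lower, 181 genes at an unadjusted p under 0.05).

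**Figure D3:**
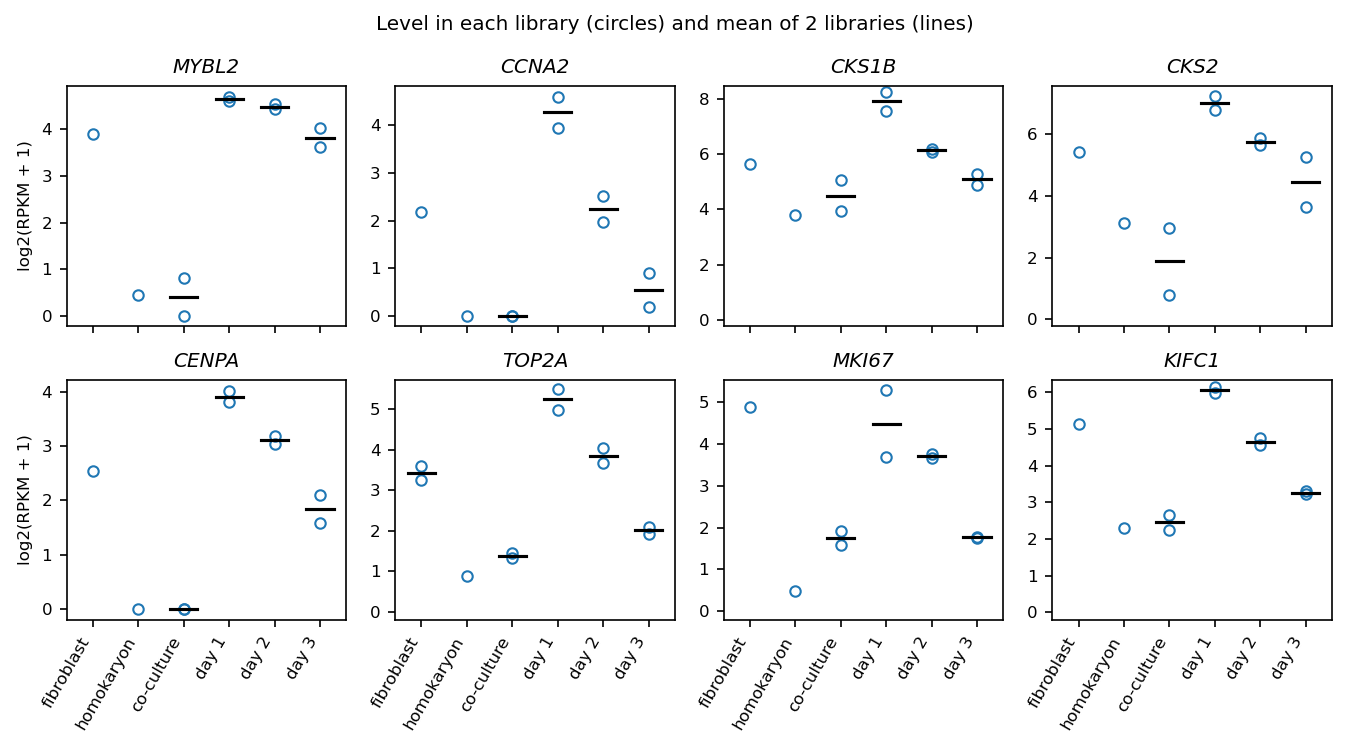
Level of 8 genes as log2(RPKM + 1) (vertical axis) in unfused fibroblasts, homokaryon, co-culture and heterokaryons on days 1 to 3 (horizontal axis); each circle is a library and each line the mean of 2 libraries. Day 1 holds the highest mean of 2 libraries in each of the 8 panels. For MKI67 alone that mean lies below the circle of unfused fibroblast replicate 2. Of the 8 genes MYBL2 declines least by day 3.

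Comparison with unfused fibroblasts rested on fewer values. TOP2A, the only member covered whole in both libraries used, was at 11.2 and 8.54 RPKM there. Co-culture was lower (-2.05, SE 0.36, adjusted p = 0.0201), where 1.12% of 357 genes were called lower. Day 1 was higher (1.81, SE 0.36, adjusted p = 0.00847), where 18.9% of 375 genes were called higher, and day 2 was not called (0.43, SE 0.37, adjusted p = 0.446, with 21.4% of 416 genes called either way). Day 3 was lower again (-1.42, SE 0.37, adjusted p = 0.0374), where 3% of 400 genes were called lower. From low to high, TOP2A ran through co-culture, day 3, unfused fibroblasts, day 2 and day 1. Of the neighbours in that order, day 3 and co-culture (adjusted p = 0.504), unfused fibroblasts and day 2, and day 2 and day 1 (0.124) were not told apart. The calls of TOP2A in co-culture and on day 3 were lost when any 1 of the 4 libraries was left out, with adjusted p up to 0.4 and 0.328, and the day 1 call was lost without unfused fibroblast replicate 1 (0.0848) or replicate 2 (0.125). In the separate fit that takes in partly covered genes, the day 1 call held (0.0259), and those in co-culture (0.0517) and on day 3 (0.0873) were lost. That fit tested 6 members in co-culture, 7 on day 1, 6 on day 2 and 7 on day 3. Besides TOP2A it called only STMN1, as given above. RACGAP1, at 16.2 and 13.4 RPKM in unfused fibroblasts, was not called in co-culture (-2.16, SE 0.48, adjusted p = 0.0785) or on day 1 (0.87, SE 0.48, adjusted p = 0.256). HMMR was not called on day 1 (-1.53, SE 0.47, adjusted p = 0.07).

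Against unfused fibroblast replicate 2 alone, which is assumed to vary like the other groups, more members could be set side by side. In co-culture all 9 tested members were lower, with a median log2 difference of -1.88 against -0.02 over all genes. Limma called none of the 9 (5 at an unadjusted p under 0.05) and 0% of 2018 genes lower, and KIFC1 came nearest (-2.67, SE 0.45, adjusted p = 0.0528). On day 1, 10 of 13 were higher with a median of 0.94 against 0.07, and CKS1B rose (2.27, SE 0.51, adjusted p = 0.0402), where 3.71% of 2019 genes were called higher. On day 2, 8 of 12 were higher, none was called (0 at an unadjusted p under 0.05), and 3.06% of 2024 genes were called higher. On day 3 none of 11 was higher and none was called (2 at an unadjusted p under 0.05), with a median of -1.24 against -0.0048 over all genes and 0.331% of 2116 genes called lower.

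Homokaryons are fused cells without a stem cell partner. With 1 library there is no replicate check and no test. Of the 14 members covered in all libraries but unfused fibroblast replicate 1 and above 0 in at least 1 of them, all 14 were lower in the homokaryon library than in unfused fibroblast replicate 2, as were 46.5% of 3481 genes chosen the same way. MKI67 was at 0.407 against 28.8 RPKM, and KIFC1 at 3.94 against 33.8. CCNA2, CENPA, BUB1B, MAD2L1, BIRC5 and TTK were at 0 in the homokaryon library, and CKS1B kept the largest share, 26.5%. Fibroblast markers moved as well, and the 11 covered summed to 19848 RPKM against 10206. COL3A1 was at 2251 against 147, COL1A2 at 5054 against 1304 and COL1A1 at 5487 against 2456. Among the 11, only VIM (2054 against 3319) and LUM (0.104 against 0.597) were lower. The part of the fibroblast markers in the lower levels of the set was not tested.

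The other groups can be set beside the same fibroblast library. Both co-cultures were below it for all 14 members (34.4% of the 3481 genes), both day 1 libraries were above it for 9 (25.2%), and both day 3 libraries were below it for 13 (30.2%). The 5 members not above it on day 1 were BIRC5, BUB1B, CENPE, MKI67 and TTK, and the exception on day 3 was MYBL2, at 15.1 and 11.3 against 13.9 RPKM. Each of these counts rests on 1 fibroblast library.

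**Figure D4:**
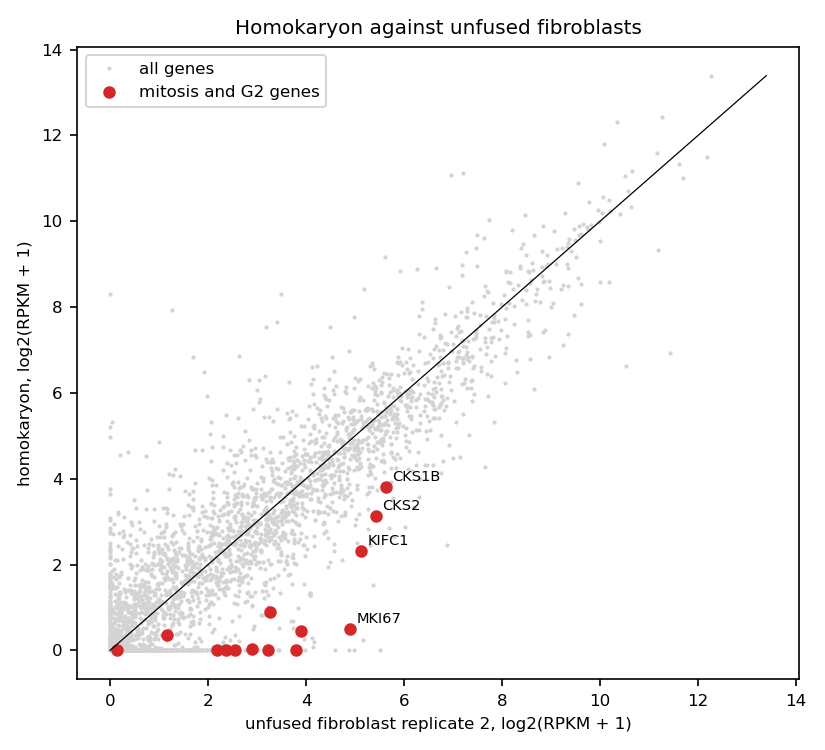
Level in the homokaryon library (vertical axis) against unfused fibroblast replicate 2 (horizontal axis), both as log2(RPKM + 1); grey points are all genes covered in both, red points are genes of the set, and the line marks equal levels. The red points of all 14 genes lie below the line, with MKI67 (0.407 against 28.8 RPKM) the farthest from it, and CDC20 at 0 in both is not drawn in red.

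Other cell cycle genes give the setting for day 1, on the same libraries. Over all 3102 genes tested, 7.58% were called higher and 5.45% lower, with a median log2 difference of 0.03, and each list below is to be read beside these. Of 43 DNA replication genes, 18 were tested, and 7 rose and none fell, with a median log2 difference of 1.63. They included the ribonucleotide reductase subunit RRM2 (2.85, adjusted p = 0.0176), the MCM helicase subunit MCM2 (2.33, adjusted p = 0.0202) and the DNA ligase LIG1 (2.17, adjusted p = 0.0224). RRM2 (-3.02, adjusted p = 0.0474) and the thymidine kinase TK1 (-3.22, adjusted p = 0.0452) also fell from day 1 to day 3, where 0.658% of 2585 genes were called lower. A further list of 81 mitosis and G2 genes had 14 tested, of which 2 rose, the kinesin KIF20A (3.78, adjusted p = 0.0176) and the CDK1 inhibiting kinase WEE1 (2.26, adjusted p = 0.0452), and its median was 0.44. None of 5 MuvB and B-MYB complex genes (median -0.13) and none of 7 G1 cyclins and kinases (median 0.06) was called. Of 8 inhibitors and RB family genes, the stress-induced GADD45A rose (2.92, adjusted p = 0.0116).

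Markers of fibroblasts and other cells were read in the same libraries. Of 10 fibroblast markers tested, COL5A1 (-1.30, adjusted p = 0.0178) and PDGFRB (-1.32, adjusted p = 0.0252) fell and none rose, where 5.45% of 3102 genes were called lower. The summed level of the 11 markers covered in 10 libraries ranged from 11729 to 12068 RPKM in co-culture and from 11288 to 11653 on day 1. Of 9 epithelial and blood markers, 6 were covered there, and they summed to 0 and 12.4 RPKM in co-culture and 47.0 and 32.0 on day 1, nearly all of it the keratin KRT8, with HBB at 0 in every library. On day 2, 4 of the 10 fibroblast markers fell, where 4.93% of 2128 genes were called lower. They were COL3A1, COL5A1, PDGFRB and TIMP1 (log2 differences from -1.70 to -1.12), and the summed level of the 11 was 6729 and 7192 RPKM. On day 3 none was called, and the sum was 8555 and 10347 RPKM. KRT8 read 0 and 233 RPKM on day 2 and 361 and 195 on day 3. The part of these markers in the levels of the set was not tested. Co-culture and heterokaryons both hold mouse stem cell RNA, and its part in the human values was not tested.

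Leaving out libraries bore on some day 1 calls. Of the 15 risers against co-culture, CKS1B, CKS2, KIFC1, PLK1, PTTG1, TOP2A and TROAP were called with any 1 of the 4 libraries left out. CCNA2, CENPA and MYBL2 could be tested only with a co-culture library left out, and were called in both cases. They stand under 1 RPKM in both co-cultures, so without a day 1 library they miss the filter, and their dependence on either day 1 library was not tested. AURKB, BUB1, CCNB2, MAD2L1 and MKI67 lost the call without either co-culture library, with adjusted p between 0.0523 and 0.177. Without day 1 replicate 1, AURKB (adjusted p = 0.0955) and CCNB2 (0.101) lost it, and without day 1 replicate 2, MAD2L1 (0.0801) and MKI67 (0.053) did. All of these differences kept their sign, from 1.94 to 4.54.

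On day 2, MYBL2 kept its call in both cases that could be tested, each with a co-culture library left out, and CKS2 kept it only without co-culture replicate 1. The other 5 risers of day 2 lost theirs in every case tested, with adjusted p between 0.0506 and 0.231 and log2 differences from 1.07 to 3.12. The day 3 call of MYBL2 was lost without co-culture replicate 1 (adjusted p = 0.0871). Of the 6 genes that fell from day 1 to day 3, TOP2A was called in all 4 cases. PTTG1 was called in none (adjusted p up to 0.091). AURKB, CKS1B and KIFC1 lost the call without day 1 replicate 1, AURKB also without day 1 replicate 2, and AURKB, CCNA2 and CKS1B without day 3 replicate 1, with adjusted p between 0.0544 and 0.106.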

How the data were processed

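Human polyA RNA levels came from 11 tables of 12 samples. One value per RefSeq accession was deposited by the authors, in a unit taken here to be RPKM, although FPKM has the same form. Per the submitters' processing notes the genome builds were hg19 and mm10. The aligner and read totals are not given in the sources used here, so depth is unknown. Each table holds 10000 distinct values and no 0, and then stops in accession order. Its stop was set where the distinct values reach 10000, and transcripts missing before it count as 0. RefSeq coding transcripts were summed per gene with the RefSeq gene table, 91 accessions being named from an older table. Accessions without a name numbered 251, and 311 genes next to such accessions were set aside, none of them in the set. The table of unfused fibroblast replicate 3 lists no human transcript and was not used.

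The tests used limma 3.58.1, run in R 4.3.3, using lmFit and trended eBayes, and took log2(RPKM + 1). Genes had to be covered whole in every library of both groups and at 1 RPKM or more in at least 2 of them. The 10 libraries of 5 groups shared the spread, homokaryons entered no fit, and p-values were adjusted over all genes tested. The script was tested on simulated data. Genes called in any comparison with co-culture or unfused fibroblasts were given in full. The members and gene lists were chosen with earlier results of these data known. Alternatives were other pseudocounts, filters and scalings, the 2 groups alone, no trend, a replicate block, genes covered in part, and each library left out. Promoter sequences were not analysed here.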

Additional observations from a re-analysis of the deposited data

Results flagged for a closer look

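The levels of 6 genes differed between the first and the third day after fusion by the test of the difference itself (limma on log2(RPKM + 1), adjusted over 2585 genes, 2 libraries a day). The log2 differences, day 3 minus day 1, were -4.89 for AURKB, -3.73 for CCNA2, -2.81 for CKS1B, -2.80 for KIFC1, -3.52 for PTTG1 and -3.23 for TOP2A. Of all genes tested, 0.658% were called lower. In each of the 6 genes both day 3 libraries were below both day 1 libraries, as for 22% of all genes. None of the 6 was called when only the 2 groups entered the fit, or with the replicate block. The 0 RPKM of AURKB in day 3 replicate 1 enters its value.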

How the results depend on the processing

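Values here are numbers of members called. For day 1 against co-culture the number stayed between 10 and 17 in every alternative run. The median of all genes moved with upper quartile scaling, to -0.15 for day 1 against co-culture and 0.31 for day 3 against day 1, and the numbers there were still 15 and 6. For day 2 against co-culture (7 called) it ran from 5 to 8 with all libraries in place: CKS1B was lost with quantile normalization, without the filter, without the trend and with genes covered in part, and CCNA2 with 5 added, without the filter, with the replicate block and with genes covered in part. For day 3 against co-culture (1 called) it was 2 with 0.1 added before the log, 2 without the trend and 0 with only the 2 groups. For co-culture against unfused fibroblasts (1 called) it was 0 with genes covered in part. For day 1 against unfused fibroblasts (1 called) it was 0 with upper quartile scaling and 2 with genes covered in part. For day 3 against unfused fibroblasts (1 called) STMN1 took the place of TOP2A with genes covered in part, and it was 0 with 5 added and 0 with only the 2 groups. For day 2 against day 1 (0 called) it was 1 with genes covered in part, AURKB on the transcript that is covered. For day 3 against day 1 (6 called) it was 2 with 0.1 added, 2 without the filter, 0 with only the 2 groups, 3 without the trend and 2 with genes covered in part. The cause was not tested, except that genes covered in part enlarge the set tested. With 1 library left out, comparisons with co-culture gave 10 on day 1, 0 to 2 on day 2 and 0 to 1 on day 3. Those with unfused fibroblasts gave 0 in co-culture, 0 to 1 on day 1 and 0 on day 3, and day 3 against day 1 gave 2 to 5. Unknown depth limits low values, and with groups of 2 a lone library is assumed to vary like the others.

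No pairing by equal replicate numbers was seen: over 10 pairs of groups the deviations correlated between -0.108 and 0.0891. With 1 difference per group, a weak pairing could be missed. With a replicate block the numbers were 15 on day 1 and 6 on day 2 against co-culture, 0 on day 3 against day 1 and 0 on day 3 against unfused fibroblasts, and the other 6 comparisons gave the number they had without it.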
